A study of Mus musculus with 2 samples.

Results

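The genes described here encode receptors, bridging proteins and engulfment adaptors with which macrophages take up apoptotic cells, a process called efferocytosis. They were chosen by name as 9 genes, Timd4, Mertk, Axl, Lrp1, Gas6, Pros1, Mfge8, Elmo1 and Dock1, and all 9 were found among the 55487 gene identifiers of the count table. RNA was sequenced from sorted small peritoneal macrophages, monocyte-derived phagocytes of the abdominal cavity, of male SWISS mice aged 5 weeks. Every mouse received 20 mg/kg lipopolysaccharide (LPS) from Escherichia coli into the peritoneum, 30 mL/kg saline under the skin at 6 h, and was killed 22 h after LPS. The LPS group was 1 library of 102283 cells pooled from 7 mice. The LPS+LCC-12 group was 1 library of 66967 cells pooled from 8 mice, which at 6 h were also injected into the peritoneum with 0.3 mg/kg LCC-12, a small molecule known to bind mitochondrial copper. No group without LPS was analysed here, and both groups carried the endotoxin challenge. Since each group is a single pooled library, nothing was tested, and every difference given is between these libraries.

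Dying cells display phosphatidylserine on their surface. TIM-4, the product of Timd4, binds this lipid directly, whereas the receptor kinases MERTK, AXL and TYRO3 (the TAM receptors) bind it through the bridging proteins GAS6 and protein S, and MFG-E8 links it to integrins. Uptake then proceeds through ELMO and DOCK proteins, which together activate the small GTPase RAC. In the peritoneum, TIM-4 is known as a mark of resident large macrophages, while small macrophages derive from monocytes and usually carry little of it.

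Of the 9 genes, 3 were at least 2-fold higher in the LPS+LCC-12 library, namely Timd4, Axl and Pros1, and none was at least 2-fold lower. Of all 13482 genes read by the same rule, 4.01% were higher and 6.65% lower. The other 6 were within 2-fold. Each of the 9 had 50 or more counts in the library where it was higher, the minimum used for this rule. The sequences before the start sites of the 3 higher genes are shown because these genes differed in the same direction. The Mertk window is shown because its transcript differed least between the libraries. Each line gives the 250 bases upstream of the RefSeq start on GRCm38.p6, read 5′ to 3′ on the gene's own strand. They lie at chr11:46810549-46810798 (plus strand) for Timd4, chr7:25788734-25788983 (minus strand) for Axl, chr16:62854057-62854306 (plus strand) for Pros1 and chr2:128698665-128698914 (plus strand) for Mertk. Capitals mark letters that match any of 7 short motifs on either strand, and overlapping matches run together.
Timd4: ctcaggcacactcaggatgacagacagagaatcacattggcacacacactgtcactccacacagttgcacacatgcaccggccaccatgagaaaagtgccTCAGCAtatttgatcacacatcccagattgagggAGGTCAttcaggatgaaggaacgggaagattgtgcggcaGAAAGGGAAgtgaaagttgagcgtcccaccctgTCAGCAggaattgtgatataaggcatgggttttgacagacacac
Axl: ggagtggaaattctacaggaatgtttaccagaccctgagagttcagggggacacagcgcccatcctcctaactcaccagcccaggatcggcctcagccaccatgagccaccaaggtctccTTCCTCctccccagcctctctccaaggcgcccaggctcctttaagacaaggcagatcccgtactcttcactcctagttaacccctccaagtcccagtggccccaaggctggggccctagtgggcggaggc
Pros1: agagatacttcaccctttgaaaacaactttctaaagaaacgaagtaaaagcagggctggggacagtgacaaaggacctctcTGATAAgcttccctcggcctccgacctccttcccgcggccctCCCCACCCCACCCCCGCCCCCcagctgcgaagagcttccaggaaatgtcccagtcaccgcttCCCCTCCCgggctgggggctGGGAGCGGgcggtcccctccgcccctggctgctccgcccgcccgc
Mertk: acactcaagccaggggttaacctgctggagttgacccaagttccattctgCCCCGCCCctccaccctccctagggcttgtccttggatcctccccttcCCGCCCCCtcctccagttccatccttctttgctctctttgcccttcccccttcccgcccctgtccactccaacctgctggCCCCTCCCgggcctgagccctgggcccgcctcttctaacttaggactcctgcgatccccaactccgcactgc

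The motifs searched were AGGTCA (a nuclear receptor monomer site), GAAANNGAA (the core bound by interferon regulatory factors), AGATAA (bound by the zinc finger proteins of the GATA class), GAGGAA (bound by PU.1, which is central to myeloid cells), TGATAA (a further form of the GATA motif), CCNCNCCC (KLF and Sp factors) and TGCTGA (a MAF core). In Timd4 the capitals are AGGTCA at 116 to 111 bases before the start and TGCTGA on the opposite strand at 150 to 145 and at 44 to 39, with GAAANNGAA at 77 to 69. Of 32841 promoter windows of the same length, 14.0% held AGGTCA and 16.1% held TGCTGA. The Axl window held only GAGGAA, on the opposite strand at 130 to 125, which 23.3% of all windows held. Pros1 held TGATAA at 169 to 164, found in 7.94% of windows, and 7 overlapping or separate matches to CCNCNCCC. Mertk held 3 matches to CCNCNCCC and no other motif. CCNCNCCC was present in 6 of the 10 windows of the 9 genes (Elmo1 has 2 starts) and in 45.9% of all windows, and GAAANNGAA in 2 of the 10, Timd4 and the inner start of Elmo1, and in 7.13% of all. A longer form of that motif, with a further A at its end, was in 0 of the 10 windows and in 2.98% of all. None of the 7 motifs searched was in all of the Timd4, Axl and Pros1 windows, and other motifs were not searched. A match is a description of letters and not of binding.

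The library totals were 50618409 counts for LPS and 47721888 for LPS+LCC-12, and the 9 genes held 0.272% and 0.363% of them. Ratios are given as log2 of the library with LCC-12 over that without after TMM scaling, with an exact 95% binomial interval in brackets. The intervals hold counting error alone: PCR copies of a molecule are counted again, and the spread between mice was not measured. Levels of different genes are compared within a library in TPM, which divides counts by exon length and scales each library to a fixed sum. The median log2 ratio was 0.53 over the 9 uptake genes and 0.02 over all 13482 genes, of which 540 were at least 2-fold higher and 896 at least 2-fold lower. Of all genes past 2-fold, 37.6% were higher, and this became 20.2% (339 higher, 1343 lower) when the libraries were scaled on general macrophage markers and 49.5% (706 higher, 721 lower) when scaled on per-length sums. Those scalings moved the median of all genes by -0.25 and 0.14 on the log2 scale.

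**Figure D1:**
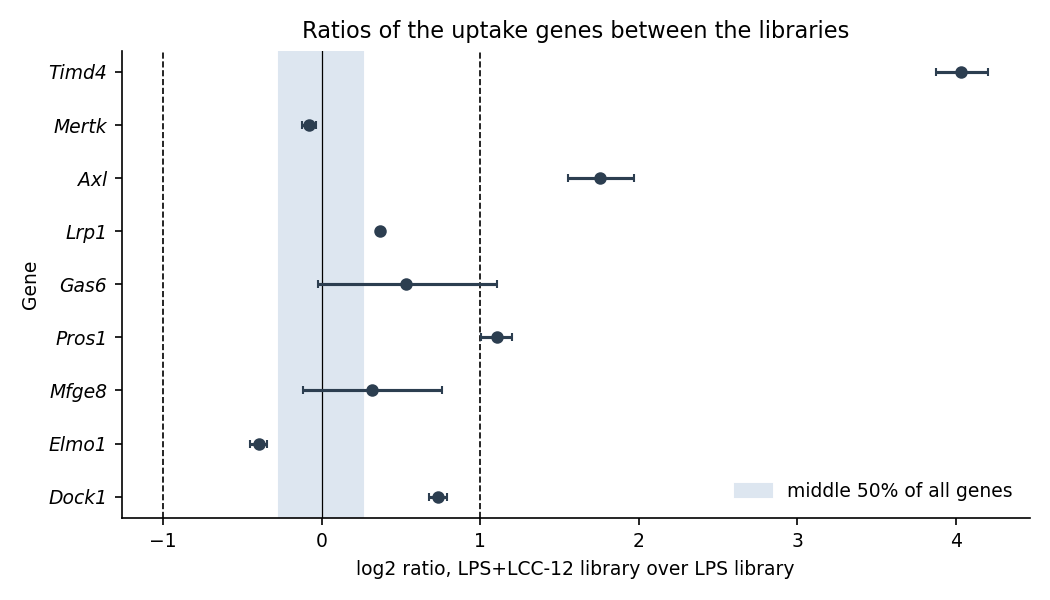
Log2 ratio (with LCC-12 over without) for the 9 uptake genes (points), with 95% counting intervals (bars), the middle 50% of all 13482 genes (shaded) and the 2-fold limits (dashed). Timd4, Axl and Pros1 lie beyond the upper limit, and Mertk alone lies inside the shaded band with its whole interval.

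Timd4, the phosphatidylserine receptor TIM-4 (ENSMUSG00000055546, chromosome 11, 46810800 to 46844332), had 318 counts without LCC-12 and 5056 with LCC-12. Its log2 ratio was 4.03 (3.87 to 4.21), the 12th highest of the 13482 genes. Per exon length it stood at 3.40 TPM (3.04 to 3.80), sixth of the 9 genes, without LCC-12 and at 61.4 TPM (59.8 to 63.2), second of the 9, with LCC-12. Without LCC-12 the Mertk level was 14.3 times that of Timd4, and with LCC-12 the Timd4 level was 1.21 times that of Mertk. The protein-coding genes nearest to Timd4 in log2 ratio over these 2 libraries were Itih1, Dpysl3 and Ank2, at 3.96, 3.87 and 3.79. Itih1 had 10 and 158 counts (3.11 to 5.12), Dpysl3 had 368 and 5202 (3.71 to 4.02) and Ank2 had 31 and 423 (3.29 to 4.39). With such intervals, which genes are nearest is not settled.

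Timd4 is itself a marker of large peritoneal macrophages, and other markers of that population were higher in the same library. Of 19 such markers with enough counts, Timd4 included, 12 were at least 2-fold higher and none lower, beside 4.01% and 6.65% of all genes. Icam2, Ltbp1 and Garnl3 were within 2-fold when scaled on general macrophage markers. Cxcl13 was at least 2-fold higher, at 1.09, when scaled on per-length sums. The whole list summed to 8928 CPM (counts scaled to library size) without LCC-12 and 16871 CPM with LCC-12. Fn1 is on this list and carried most of that difference, at 3114 and 10656 CPM, and the list without it summed to 5813 and 6215 CPM. Cd5l, a secreted scavenger protein, had 466 and 10022 counts. Gata6, the transcription factor that defines large peritoneal macrophages, had 529 and 720 counts and a log2 ratio of 0.49 (0.33 to 0.66). It was 1 of the 7 markers within 2-fold. The log2 ratios of Timd4 and Cd5l were larger, and why the markers differed unequally was not tested. Log2 ratios over the 19 markers ran from -0.24 to 4.47. In bulk RNA, a different number of cells of a type and a different amount of RNA per cell cannot be told apart.

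Mertk, the receptor kinase known from uptake by resident macrophages (ENSMUSG00000014361, chromosome 2, 128698956 to 128802894), had 9082 counts without LCC-12 and 8324 with LCC-12. Its log2 ratio was -0.08 (-0.12 to -0.04), and it became 0.06 when scaled on per-length sums, so no direction is given for Mertk. It was the second most abundant of the 9 genes per length without LCC-12, at 48.7 TPM (47.7 to 49.7), and the third with LCC-12, at 50.7 TPM (49.6 to 51.8).

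Axl, the receptor kinase of the same family (ENSMUSG00000002602, chromosome 7, 25757273 to 25788705), had 249 counts without LCC-12 and 817 with LCC-12. It was 3.38-fold higher, with a log2 ratio of 1.76 (1.55 to 1.97). Its level nevertheless stayed low, at 1.15 TPM (1.01 to 1.30) and 4.29 TPM (4.00 to 4.59). Tyro3, the remaining TAM receptor, had 8 and 11 counts.

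Within each library, the make-up of the TAM receptors does not depend on scaling between libraries. Axl made up 2.67% (exact 95% interval 2.35 to 3.01) of the counts of Mertk, Axl and Tyro3 without LCC-12 and 8.93% (8.35 to 9.53) with LCC-12. Mertk made up 97.2% (96.9 to 97.6) and 91.0% (90.3 to 91.5). Mertk thus remained the main TAM receptor transcript in both libraries, at 42.3 times the Axl level per length without LCC-12 and 11.8 times with LCC-12.

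Lrp1, a large endocytic receptor that also takes part in uptake of calreticulin-bearing cells (ENSMUSG00000040249, chromosome 10, 127538161 to 127621148), had the highest level of the 9 genes in both libraries. It reached 115863 and 145004 counts, with a log2 ratio of 0.37 (0.36 to 0.38), a narrow interval because of its depth. Its level was 152 TPM (151 to 153) without LCC-12 and 216 TPM (215 to 217) with it. The ratio was within 2-fold, and it was 0.12 when scaled on general macrophage markers.

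**Figure D2:**
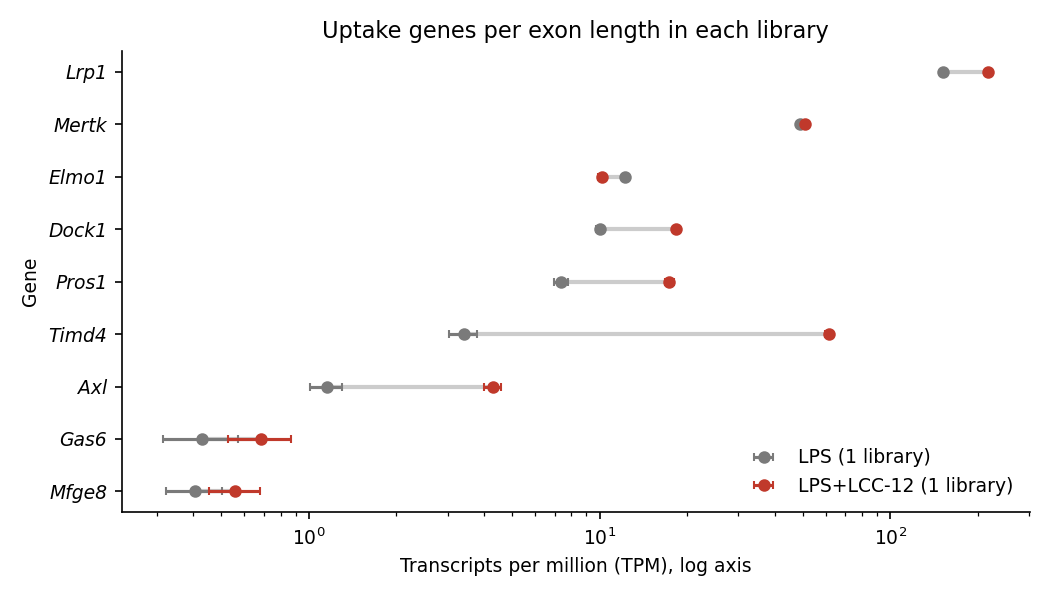
Level of each of the 9 uptake genes in TPM (counts per exon length, log axis) in the LPS library (grey) and the LPS+LCC-12 library (red), with 95% Poisson counting intervals and 1 library per point. Timd4 spans the widest distance, from 3.40 to 61.4 TPM, while Gas6 and Mfge8 lie lowest with overlapping intervals.

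Of the 3 bridging protein genes among the 9, Pros1 had the most counts in both libraries. Pros1, which encodes the TAM ligand and anticoagulant protein S (ENSMUSG00000022912, chromosome 16, 62854307 to 62929346), had 1291 counts without LCC-12 and 2688 with it, a 2.15-fold difference (log2 ratio 1.10, 1.01 to 1.20). It lay close to the limit and was within 2-fold, at 0.86, when scaled on general macrophage markers. The sum of those markers differed mainly through Lyz2, which encodes lysozyme, at 3049 and 4508 CPM, and the others summed to 5095 and 5154 CPM.

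Gas6, the other TAM ligand (ENSMUSG00000031451, chromosome 8, 13465374 to 13494490), had 47 counts without LCC-12 and 66 with LCC-12. Its log2 ratio of 0.53 (-0.03 to 1.11) was within counting error, so a difference was not detectable at this depth. Mfge8, the bridge from phosphatidylserine to integrins (ENSMUSG00000030605, chromosome 7, 79133768 to 79149060), had 82 and 99 counts and a ratio of 0.32 (-0.12 to 0.76), again within counting error. The levels of Gas6 and Mfge8 also did not differ from each other beyond counting error, at 0.429 (0.315 to 0.570) and 0.406 (0.323 to 0.504) TPM without LCC-12 and 0.684 (0.529 to 0.870) and 0.557 (0.453 to 0.678) TPM with LCC-12. Pros1 made up 96.5% (95.4 to 97.4) of the counts of the TAM ligands without LCC-12 and 97.6% (97.0 to 98.1) with LCC-12, so protein S was the main TAM ligand transcript of both libraries.

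GAS6 and protein S need vitamin K-dependent carboxylation to bind phosphatidylserine. Of 9 genes listed around that step, 4 had enough counts. All 4 were within 2-fold, beside 4.01% higher and 6.65% lower among all genes. Ggcx, the carboxylase, had 374 and 428 counts (log2 ratio 0.24, 0.04 to 0.44). Vkorc1l1, a vitamin K reductase, had 1127 and 1299 counts (0.25, 0.13 to 0.37), while Vkorc1 had 2 and 8. The 2 genes of this list with the most counts were Furin, a proprotein convertase, and F10, coagulation factor X. Furin had 19712 and 13099 counts (log2 ratio -0.54, the lowest of the 4), and F10 had 19618 and 19415.

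The engulfment adaptors differed in opposite directions within 2-fold. Elmo1 (ENSMUSG00000041112, chromosome 13, 20090596 to 20608353) was lower at 6593 and 4848 counts (log2 ratio -0.40, -0.45 to -0.34), and its sign was the same under all 6 other scalings. Dock1, the exchange factor that ELMO proteins bind (ENSMUSG00000058325, chromosome 7, 134670654 to 135173639), had 4011 and 6455 counts, a ratio of 0.73 (0.68 to 0.79). Elmo1 was 1.22 times as abundant per length as Dock1 without LCC-12, and Dock1 was 1.80 times as abundant as Elmo1 with LCC-12.

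Neither adaptor was the main one among the relatives compared here. Elmo1 made up 34.5% (33.8 to 35.1) of the counts of Elmo1, Elmo2 and Elmo3 without LCC-12 and 24.6% (24.0 to 25.3) with LCC-12, and per exon length 21.4% and 14.6%. Elmo2 held most of the remainder, with 12274 and 14633 counts. Dock1 made up 6.66% (6.47 to 6.87) of the counts of Dock1, Dock2 and Dock5 without LCC-12 and 10.8% (10.5 to 11.0) with LCC-12. Dock2, the leukocyte member that drives migration, had 35587 and 37861 counts, and Dock5 had 20599 and 15619.

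**Figure D3:**
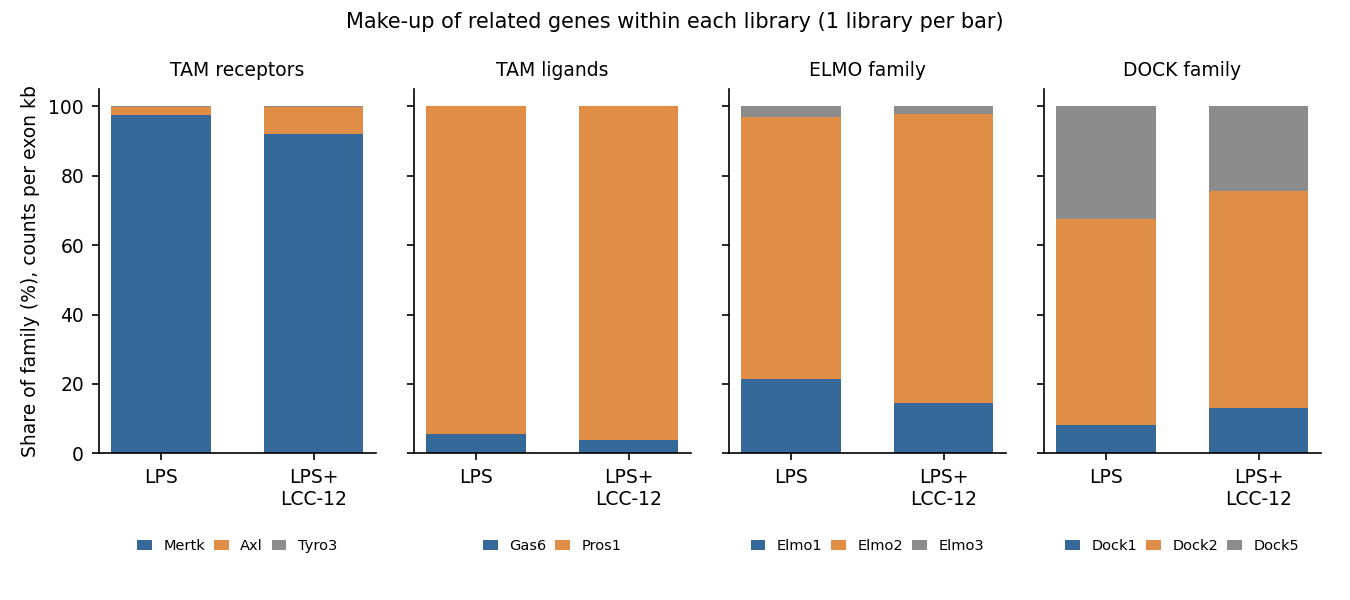
Share of each gene in the length-corrected counts of its group of relatives in the LPS and LPS+LCC-12 libraries, with 1 library per bar and no error bars. The DOCK panel holds only Dock1, Dock2 and Dock5 and no other DOCK gene. Mertk, Pros1, Elmo2 and Dock2 are the main member of their group in both libraries. The shares of Axl and Dock1 are larger and that of Elmo1 smaller in the LPS+LCC-12 library.

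Other genes of apoptotic cell uptake were read from lists chosen by role. Of 30 further genes listed as uptake receptors, 24 had enough counts, with 4 at least 2-fold higher, 2 lower and 18 within 2-fold. Among all 13482 genes, 4.01% were higher and 6.65% lower, so the number of lower receptors was near the share of all genes. The median log2 ratio was 0.19, and it was -0.06 when scaled on general macrophage markers. Fcrls, related to Fc receptors, had 99 and 954 counts (3.31, 3.01 to 3.63). Whether it takes part in apoptotic cell uptake was not tested. Cd36, a scavenger receptor for oxidised lipid and apoptotic cells, had 3019 and 18517 counts (2.66, 2.61 to 2.72). Mrc1, the mannose receptor, was also among the higher genes, with 2922 and 9694 counts.

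The scavenger receptor gene Scarf1 was the fourth higher receptor of that list, with 523 and 1284 counts (1.34, 1.19 to 1.49). The lower ones were Cd300lf, a phosphatidylserine receptor of myeloid cells, with 28547 and 10656 counts (-1.38, -1.41 to -1.34), and Itgb3, an integrin chain that binds MFG-E8, with 640 and 227 (-1.45, -1.67 to -1.23). Itgb3 is also on the list of platelet markers.

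Of 20 other bridging molecules and opsonins, 16 had enough counts, with 5 higher and 2 lower, beside 4.01% and 6.65% of all genes. The median was -0.04. This median was above 0 under 2 of the 6 other scalings. Cd5l and Fn1, which encodes fibronectin, had log2 ratios of 4.47 (4.34 to 4.61) and 1.77 (1.77 to 1.78). The C1q genes, whose product opsonises dying cells, had 2591 and 6705 counts for C1qa, 2099 and 4816 for C1qb and 2397 and 5302 for C1qc. C1qb and C1qc were just within 2-fold, at 1.00 and 0.94, when scaled on general macrophage markers. Complement C3 was lower, with 149755 and 70525 counts (-1.04, -1.05 to -1.03), and was within 2-fold under 2 of the 6 other scalings, at -0.90 when scaled on per-length sums. Ptx3, a soluble pentraxin, had 295 and 79 counts (-1.85, -2.23 to -1.49).

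Of 30 engulfment genes besides Elmo1 and Dock1, 28 had enough counts and all 28 were within 2-fold, beside 4.01% higher and 6.65% lower among all genes. Their median of -0.11 was 0.02 when scaled on per-length sums and -0.36 on general macrophage markers, where 2 of them were at least 2-fold lower. The members with the most counts were Tln1, the integrin activator talin, at 99827 and 115552, and Rhoa, a small GTPase, at 36376 and 40597. All 25 genes of phagosome processing were within 2-fold, with a median of 0.00 (-0.24 on general macrophage markers and 0.14 on per-length sums). The genes of this list with the most counts were Cybb, the NADPH oxidase subunit of LC3-associated phagocytosis, at 73706 and 70432 counts and Ncf1 at 65716 and 49120.

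Of 13 genes that restrain uptake or shed its receptors, 12 were within 2-fold and 1 was lower, near the 6.65% lower among all genes. Their median was -0.37. The lower gene was Pecam1, an adhesion molecule that signals detachment of live cells, with 6327 and 2869 counts (-1.09, -1.16 to -1.03). It was within 2-fold at -0.96 when scaled on per-length sums. Pecam1 is also on the list of endothelial markers. Of 15 transcription factors linked to uptake genes, 2 were higher, beside 4.01% of all genes. Pparg, a lipid-sensing nuclear receptor, had 53 and 188 counts (1.86, 1.43 to 2.34). Klf4 had 4885 and 10196 counts (1.11, 1.06 to 1.16) and was within 2-fold, at 0.86, when scaled on general macrophage markers.

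**Figure D4:**
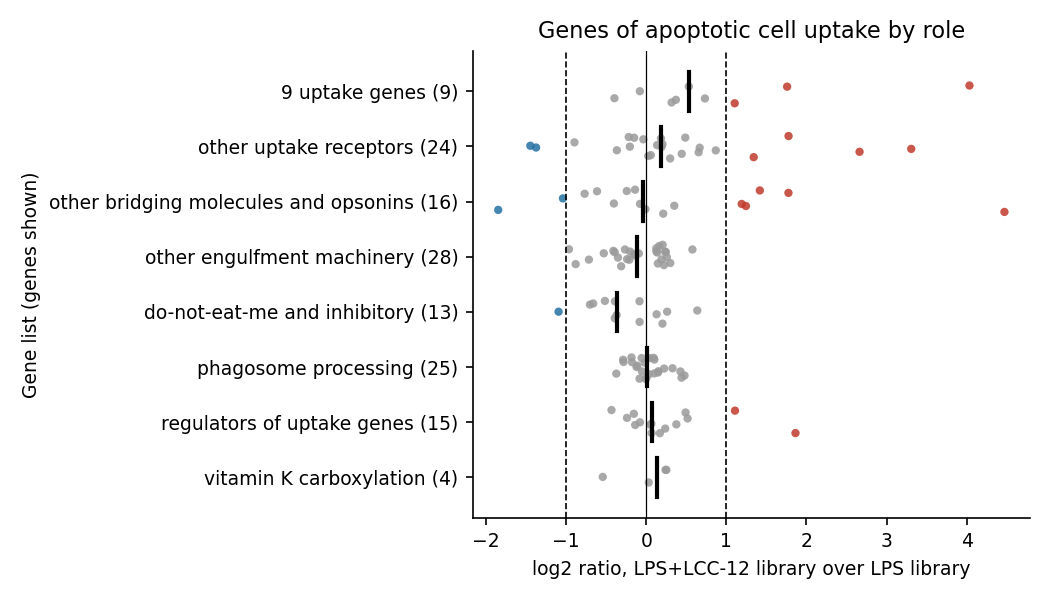
Log2 ratio of each gene with 50 or more counts (points) in the 9 uptake genes and 7 lists of related genes, with the list median (bar) and the 2-fold limits (dashed); red points are at least 2-fold higher and blue points at least 2-fold lower. Genes past 2-fold are found among receptors, bridging molecules and regulators, with 1 among the inhibitory genes and none in the engulfment and phagosome lists.

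Markers of several cell types differed between the libraries alongside the uptake genes. The numbers of higher and lower markers, here and below, stand beside 4.01% higher and 6.65% lower among all genes. Markers of macrophages in general were present in both, with 41890 and 39897 counts for Adgre1, which encodes F4/80, and 22001 and 31384 for Csf1r, but these do not separate small from large peritoneal macrophages. Of 14 small peritoneal macrophage markers with enough counts, 11 were at least 2-fold higher and none lower, and the list summed to 1056 CPM without LCC-12 and 1924 CPM with LCC-12. Fcrls and Mrc1 belong to that list too. When scaled on general macrophage markers, H2-Aa, H2-Ab1 and Cd74 of that list were within 2-fold, at 0.78, 0.79 and 0.78. Neutrophil markers were lower for 10 of 15 genes, with none at 0 and a sum of 14002 CPM without LCC-12 and 5544 CPM with LCC-12. Monocyte markers were lower for 5 of 11 genes and higher for 1, Fn1, and summed to 9395 and 14736 CPM. That sum was higher through Fn1 alone, since the other monocyte markers summed to 6281 CPM without LCC-12 and 4080 CPM with LCC-12.

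Cells of the peritoneal lining and stroma are known sources of Gas6, Axl and Mfge8. All 4 mesothelial markers with enough counts were lower, with a list sum of 8.03 and 1.41 CPM and Lrrn4 at 0 with LCC-12. Of 6 fibroblast markers 5 were lower, with a sum of 32.9 and 6.62 CPM, Lum and Dpt at 0 in both libraries and Pdgfra at 0 with LCC-12. Axl was higher with LCC-12, while Gas6 and Mfge8 were within counting error. How much of their RNA came from such cells was not tested. Mast cell markers were lower for 5 of 6 genes (213 and 68.5 CPM). B cell markers were within 2-fold for 12 of 12 genes (214 and 250 CPM). Dendritic cell, T and NK cell, endothelial and platelet lists had only 2 to 4 genes with enough counts each, and the mesothelial list had 4. Of these, 1 of 4 dendritic cell and 1 of 4 platelet markers were higher. Lower were 2 of 4 platelet, 1 of 3 T and NK cell and 1 of 2 endothelial markers. The part of these cell types in the values of the uptake genes was not tested.

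**Figure D5:**
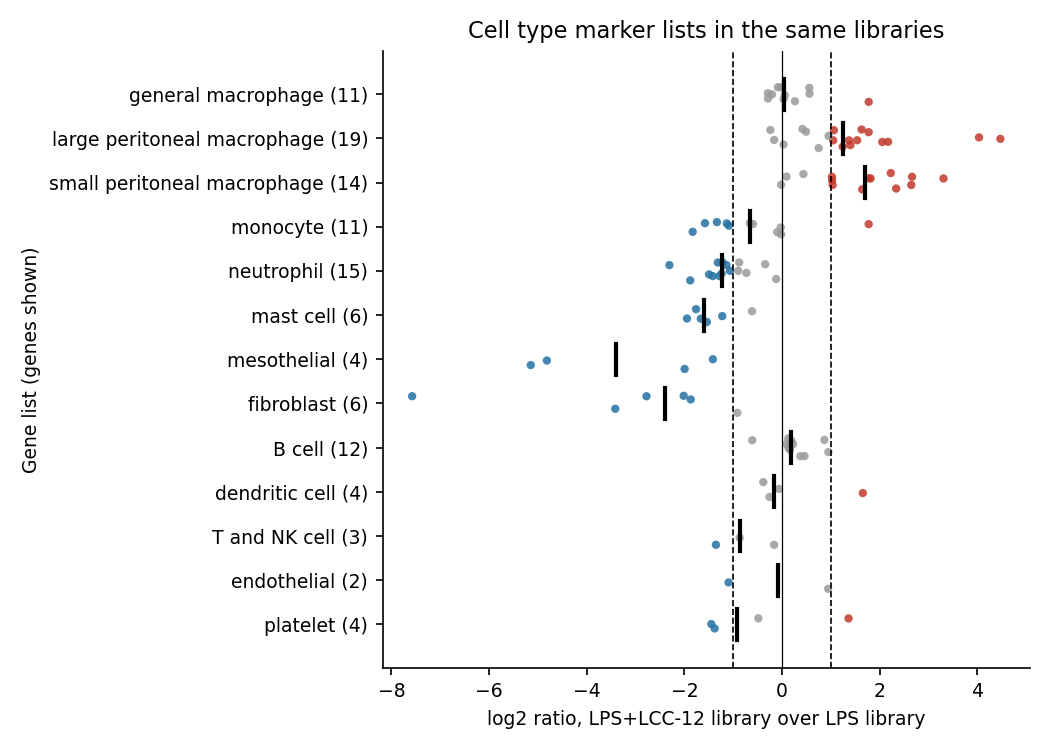
Log2 ratio of cell type marker genes with 50 or more counts (points) by list, with the list median (bar), the 2-fold limits (dashed), genes at least 2-fold higher in red and at least 2-fold lower in blue. Both peritoneal macrophage lists lie mostly to the right, and neutrophil, mast cell, mesothelial and fibroblast lists lie to the left.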

How the data were processed

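The authors deposited 1 table of raw, whole-number gene counts with 2 columns, 1 per library, and no normalization. Per the labels' protocols, a stranded low-input kit took 10 ng of RNA per pool, with ribosomal depletion and 12 PCR cycles, and the libraries were read as pairs of 100 bp; the molecule label names polyA RNA instead. The tool STAR and the build mm10 come from the submitters' processing notes. How counting treated strand, and with which tool and annotation, is not given in the sources used here. The library code in each label gave the column of its group.

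Symbols, positions and summed exon lengths came from GENCODE M21 (GRCm38), which matched 55394 of 55487 identifiers. Library sizes were scaled by TMM in edgeR 4.0.16 (R 4.3.3), with 0.5 counts added in proportion to library size. Genes were read as higher or lower from a 2-fold difference on, given 50 or more counts in the higher library. TPM used summed exon lengths, and because TPM scales the libraries differently, ratios between libraries are from TMM. The scaling was tested on simulated counts in which few genes differed, as many higher as lower. It was not tested on more numerous or uneven differences, such as those between these libraries. Sequences are from the RefSeq promoter table on GRCm38.p6, in which all 9 genes matched; the motifs were chosen after the ratios were known, and the interferon regulatory factor motif was shortened by its last A after the longer form had been searched. Alternatives were other scalings (DESeq2 1.42.0 included), added counts, count minimums and size limits; scaling on per-length sums, and list sums without their highest gene, were chosen after seeing the data.

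The genes, lists and rules were chosen with earlier results of these data known. Besides the 9 genes, up to 4 genes past 2-fold with the largest ratios were named from each list, or the 2 with the most counts where none passed. Also named were Adgre1, Csf1r, Gata6, the relatives in each family and the 3 genes nearest to Timd4 in ratio. Scarf1, Cd300lf, C1qb, C1qc, C3, Lyz2, Ggcx, Vkorc1l1 and Vkorc1 fall outside this rule and were named after their values were seen. The same holds for Icam2, Ltbp1, Garnl3, Cxcl13, H2-Aa, H2-Ab1 and Cd74.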

Additional observations from a re-analysis of the deposited data

How the results depend on the processing

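The count of 3 uptake genes at least 2-fold higher ran from 2 to 4 over 13 alternatives, and the count of lower genes was 0 in each. Pros1 dropped out when scaled on general macrophage markers and at a 3-fold limit, and Dock1 was added at 1.5-fold. The median log2 ratio of 0.53 became 0.29 when scaled on general macrophage markers, 0.67 when scaled on per-length sums and 0.73 with a minimum of 200 counts, which removed Gas6 and Mfge8. Timd4 ran from 3.79 to 4.17 and Axl from 1.51 to 1.90, and Mertk was the only one of the 9 to change sign, from -0.33 to 0.06. Over all genes, the 540 higher and 896 lower were 4.01% and 6.65% of 13482. With a minimum of 1 count they became 4143 and 6439 (15.5% and 24.2% of 26660). With 10 they became 1462 and 2387 (8.02% and 13.1% of 18219), and with 200, 298 and 438 (2.85% and 4.18% of 10468). They became 1304 and 1794 at 1.5-fold (9.67% and 13.3%) and 195 and 340 at 3-fold (1.45% and 2.52%). When the whole counting interval had to pass 2-fold, they became 299 and 521 (2.22% and 3.86%). Of 182 recomputed counts of higher or lower genes in the 7 related lists, 21 moved by over 1.5 times, by at most 3 genes each. Fewer than 100 counts per library limit Gas6 and Mfge8. No paired analysis was possible because each group has 1 library.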

Other observations

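Transcripts annotated inside Elmo1 on its own strand were chosen after their values were seen. Gm47664, a sense intronic transcript, had 539 counts without LCC-12 and 266 with LCC-12 (log2 ratio -0.97, -1.19 to -0.76), while Elmo1 itself had a ratio of -0.40 (-0.45 to -0.34), and the intervals do not overlap. Gm47657 and Gm47665, annotated there as transcripts still to be experimentally tested, had 157 and 118 counts and 119 and 98 counts. Whether these counts come from unspliced Elmo1 RNA was not tested.

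Fam196a lies within Dock1 on the opposite strand and had 5 counts without LCC-12 and 24 with LCC-12. All annotated genes that overlap Dock1, on either strand, summed to 182 and 234 counts, beside 4011 and 6455 for Dock1. The genes that overlap Mertk summed to 35 and 22 counts and those that overlap Lrp1 to 48 and 32, while no annotated gene overlaps Timd4, Axl, Pros1 or Mfge8. Tmem255b, on the strand opposite to Gas6, had 0 counts in both.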
